A study of Mus musculus with 28 samples.

Results

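Gzma-high cells were 355 of the 5471 deposited single cells, and 355 of the 5374 cells with at least 1 UMI (unique molecular identifier, 1 per captured mRNA molecule) of the CD3 genes Cd3d, Cd3e and Cd3g. A cell was counted as Gzma-high when it held at least 3 Gzma UMIs and 0 UMIs of Klra1, Klra6 and Klra7 together, so the cells were chosen by their Gzma and Klra UMIs, and these values are given as a description. The cells came from wild-type C57BL/6 mice bearing MC38-OVA tumours, a mouse colon carcinoma line that expresses ovalbumin. CD8+ tumour-infiltrating lymphocytes (TILs) negative for Tim-3 and PD-1 were sorted at day 12 after tumour implantation and run on the 10x Chromium droplet platform, with 1 library from mice given antibodies to PD-1 and Tim-3 (blockade) and 1 from mice given isotype control antibodies. Of the Gzma-high cells, 265 came from the blockade library and 90 from the isotype library. The number of mice behind each library is not given in the sources used here, and with 1 library per condition no difference between the conditions was tested. Bulk libraries of sorted CD8+ TILs from the same tumour model, which played no part in the choice of the cells, were used for tests.

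Gzma encodes granzyme A, a serine protease with trypsin-like specificity that killer cells store in cytotoxic granules and release into target cells through the pores made by perforin. Granzyme K is a closely related tryptase whose gene neighbours Gzma, and granzyme B is the protease that cleaves caspases and triggers apoptosis. Ccl5 encodes a chemokine that antigen-experienced CD8+ T cells keep as mRNA and protein and release on stimulation. In tumours, CD8+ T cells that express granzymes range from cells that still carry memory features to terminal effectors, marked by the receptors KLRG1 and CX3CR1 and the transcription factor Zeb2.

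The single-cell libraries held 12430246 UMIs in the blockade and 12443325 in the isotype cells, and the 7 cell barcodes that occurred in both libraries were absent from the Gzma-high cells. The median depth was 3872 UMIs per Gzma-high cell against 3817 per other CD3-positive cell in the blockade library, and 2763 against 3667.5 in the isotype library. The shallowest Gzma-high cell had 2579 UMIs in the blockade and 1673 in the isotype library, so the isotype library reached shallower cells. Cd8a or Cd8b1 was detected in 98.5% of the blockade and 94.4% of the isotype Gzma-high cells, and Cd4 in 1 and 0 cells. Markers of most other lineages were near 0. The summed CPM (UMIs of a gene scaled to all UMIs of the pooled cells) of 7 B cell genes was 4.75 and 13.4 in blockade and isotype Gzma-high cells. That of 7 CD4 and regulatory T cell genes was 15.8 and 16.7. Of 8 gamma-delta T cell genes looked for, only 2 had counts, so gamma-delta cells cannot be judged here. Their sum was 13.5 against 5.37 CPM in other blockade cells, and 10.0 against 11.6 CPM in isotype cells. The 10 natural killer genes, some of which effector CD8+ cells share, summed to 478 CPM in Gzma-high against 427 CPM in other blockade cells, and to 338 against 204 CPM in isotype cells. At least 10 such UMIs were found in 7 blockade and 0 isotype Gzma-high cells.

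Gzma-high cells made up 10.8% (95% Clopper-Pearson interval 9.61 to 12.1%) of the 2450 CD3-positive blockade cells and 3.08% (2.48 to 3.77%) of the 2924 CD3-positive isotype cells. The ratio of the shares, blockade over isotype, was 3.51, and the intervals did not overlap. Intervals cover counting error only, not the difference between mice. With every cell thinned to 2400 UMIs, shallower cells were left out, which took 40 of the 90 isotype Gzma-high cells, 456 of the 2834 other isotype cells and no blockade cell. The shares were then 8.71% in the blockade and 1.41% in the isotype library, a ratio of 6.19. Gzma-high cells held 5740 of the 6926 Gzma UMIs (82.9%) of CD3-positive blockade cells and 962 of the 1491 (64.5%) of isotype cells. They held 10.5% and 2.48% of all UMIs.

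**Figure D1:**
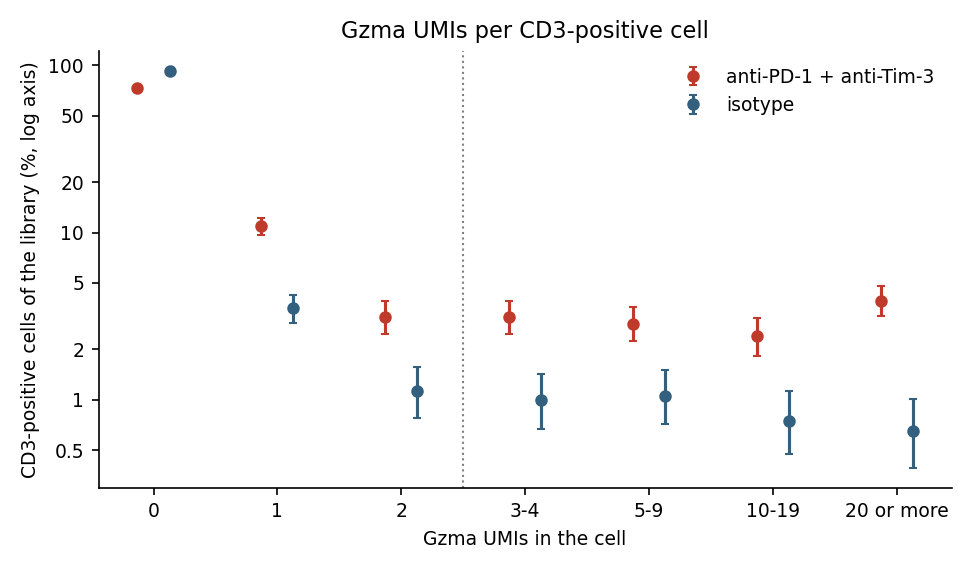
Share of CD3-positive cells of each library (%, log axis, with 95% Clopper-Pearson intervals) by the number of Gzma UMIs in the cell. Right of the dotted line, at 3 UMIs or more, each blockade bin lies above its isotype bin, from 3.14% against 0.992% at 3 to 4 UMIs to 3.92% against 0.650% at 20 or more; the bins also include cells with Klra UMIs.

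Gzma itself varied widely among the chosen cells. The median was 10 Gzma UMIs in blockade cells (quartiles 4 and 26, highest 196) and 7 in isotype cells (quartiles 4 and 12, highest 46). The 27 blockade and 9 isotype cells with the most Gzma held 42.0% and 31.0% of the Gzma UMIs of their group. The plot of Gzma UMIs per cell has no gap at the threshold: 2 UMIs were seen in 3.14% of CD3-positive blockade and 1.13% of isotype cells, and 3 to 4 UMIs in 3.14% and 0.992%. At least 1 Gzma UMI was found in 17.5% of the other blockade and 5.19% of the other isotype cells. In naive-like cells the shares were 16.2% and 2.93%. These were other cells with Ccr7 and Igfbp4 both detected (37 blockade and 409 isotype cells, median 4671 and 3838 UMIs). Being taken from the other cells, they could not include a Gzma-high cell, so their Gzma values were limited by the rule. Ccr7 and Igfbp4 were both detected in 1 blockade and 0 isotype Gzma-high cells. The share of other blockade cells lay within the interval of the naive-like cells (6.19 to 32.0%), and that of other isotype cells just above theirs (1.53 to 5.07%). The summed level was further apart, at 110 CPM in other against 21.5 CPM in naive-like blockade cells, and at 45.1 against 7.11 CPM in isotype cells. The other cells include 37 blockade and 11 isotype cells with at least 3 Gzma UMIs that the Klra criterion set aside. Free RNA in droplets gives UMIs to cells that lack a gene, and its part in these values was not tested.

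Sequences upstream of the 3 granzyme genes that mark these cells are shown because Gzma, Gzmk and Gzmb were high in the same cells, and T-box and RUNX factors are known regulators of cytotoxic genes. Each is the 300 bases from 250 before to 50 after the annotated gene start (RefSeq, GRCm38.p6, minus strand), 5′ to 3′. Capitals mark matches to a T-box core, spelled GTGTGA on one strand and, on the opposite strand, printed as TCACAC. They also mark matches to a RUNX core, spelled TGTGGT on one strand and, on the opposite strand, printed as ACCACA. The regions are chr13:113100932-113101231 for Gzma, chr13:113180916-113181215 for Gzmk and chr14:56262285-56262584 for Gzmb.
Gzma: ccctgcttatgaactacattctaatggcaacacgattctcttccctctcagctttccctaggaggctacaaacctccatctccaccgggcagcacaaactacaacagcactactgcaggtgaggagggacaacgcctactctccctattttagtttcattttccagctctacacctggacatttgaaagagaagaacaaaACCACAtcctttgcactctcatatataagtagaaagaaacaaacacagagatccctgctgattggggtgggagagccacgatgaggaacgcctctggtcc
Gzmk: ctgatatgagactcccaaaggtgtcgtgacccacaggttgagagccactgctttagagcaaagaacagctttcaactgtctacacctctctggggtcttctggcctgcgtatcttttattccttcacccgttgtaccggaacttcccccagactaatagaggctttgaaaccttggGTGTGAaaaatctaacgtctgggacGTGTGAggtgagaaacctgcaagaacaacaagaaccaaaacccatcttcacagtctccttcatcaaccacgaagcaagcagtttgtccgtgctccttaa
Gzmb: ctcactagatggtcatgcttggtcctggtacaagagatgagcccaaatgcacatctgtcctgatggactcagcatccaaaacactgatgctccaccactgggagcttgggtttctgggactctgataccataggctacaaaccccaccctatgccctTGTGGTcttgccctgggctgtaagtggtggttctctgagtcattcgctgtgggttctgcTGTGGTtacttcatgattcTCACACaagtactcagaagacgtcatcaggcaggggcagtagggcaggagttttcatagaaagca
The Gzma window held 1 RUNX core, 50 bases before the start. The Gzmk window held T-box cores 74 and 49 bases before the start, and the Gzmb window a T-box core 15 bases and RUNX cores 93 and 34 bases before it. Of 32851 RefSeq promoters of this length, 14.5% held the T-box core and 16.8% the RUNX core. Of the 25 genes at least 2-fold higher in Gzma-high cells (below), 20 had a promoter in the table, and 4 of these (20%) held the T-box and 6 (30.0%) the RUNX core. A gene was counted when any of its promoters held the core, while the background was counted per promoter, so the shares are not fully alike. A match describes these letters only, not a bound site.

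Across the transcriptome, few genes separated Gzma-high cells from the other CD3-positive cells in both libraries. Of 6366 genes with at least 100 UMIs in each library, 25 (0.393%) were at least 2-fold higher and 99 (1.56%) at least 2-fold lower in Gzma-high cells of both libraries. In the blockade library alone 44 genes (0.691%) were higher and 179 (2.81%) lower, and in the isotype library alone 461 (7.24%) were higher and 540 (8.48%) lower. The isotype sum held fewer UMIs, 298530 against 1262659. When the blockade sum was thinned to the isotype sum, its counts were 184 higher and 400 lower. The contrast rests on cells chosen for Gzma, so it was not tested. The other 24 higher genes, in the order of their smaller ratio, were led by the chemokine Ccl3 and the proteases Gzmb and Gzmk.

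The granzyme genes differed in how far they separated the cells. Gzma reached 4546 CPM in Gzma-high against 110 CPM in other blockade cells, and 3222 against 45.1 CPM in isotype cells, as the rule required. Gzmb reached 3863 CPM (Poisson interval 3756 to 3973) against 1091 CPM in blockade cells and 2392 CPM (2219 to 2574) against 231 CPM in isotype cells, 3.54 and 10.4-fold higher. Gzmk was at 421 CPM (386 to 459) against 128 CPM and at 399 CPM (330 to 477) against 40.9 CPM, 3.30 and 9.77-fold higher. The other isotype cells were lower than the other blockade cells for Gzma, Gzmb and Gzmk, and the ratios of the isotype library were larger. Gzmm, a further granzyme, was at 120 against 55.4 CPM in blockade and 117 against 75.7 CPM in isotype cells. Gzmc, granzyme C, was rare, with 15 UMIs in Gzma-high and 120 in other blockade cells, and 0 against 100 in isotype cells. Prf1, the pore-forming perforin, was scarce, with 17 UMIs in the blockade and 2 in the isotype Gzma-high cells. Nkg7, a granule membrane protein, was at 3350 against 2229 CPM and at 2817 against 1375 CPM.

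Gzmk and Gzmb were also detected in a larger share of Gzma-high than of other cells. With cells thinned to 2400 UMIs, which left out 40 isotype Gzma-high cells and 456 other isotype cells but no blockade cell, Gzmk was detected in 54.7% of Gzma-high against 22% of other blockade cells, and in 42.0% against 6.27% of isotype cells. Before thinning, Gzmk was found in 66.0% against 28.9% of blockade and 54.4% against 8.33% of isotype cells. In naive-like cells thinned alike, which should lack Gzmk, it was found in 0 of 37 blockade cells (interval up to 9.49%) and 1.04% of isotype cells. Gzmb was detected in 89.8% against 55.1% of blockade and 72.0% against 14% of isotype cells after thinning, with 32.4% and 2.60% of naive-like cells. The Gzmb share of other blockade cells thus lay above that of naive-like cells, which was itself high in that library. Blockade cells without CD3 UMIs that held at least 3 UMIs of B cell, myeloid, dendritic, tumour or stroma markers had Gzmb in 7.69% after thinning. The source of the Gzmb UMIs in naive-like cells was not tested.

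Of the chemokine genes, Ccl3, Ccl4 and Ccl5 were at least 2-fold higher in both libraries and Xcl1 was not. Ccl5 was the most abundant of the marker genes, at 19918 against 8292 CPM in blockade and 30114 against 4897 CPM in isotype cells, 2.40 and 6.15-fold higher. It was the only one of the 3 markers detected in most of the other cells, in 89.7% of blockade and 61.6% of isotype cells after thinning, with 64.9% and 29.7% of naive-like cells. Ccl3, which attracts inflammatory leukocytes, was at 391 against 88.7 CPM and 248 against 63.2 CPM, and 64 of 265 blockade and 26 of 90 isotype cells held a UMI of it. Ccl4, a related chemokine, was at 1388 against 535 CPM and 844 against 261 CPM. Xcl1, which attracts cross-presenting dendritic cells, was at 107 against 110 CPM in blockade cells, where 109 of 135 UMIs lay in 1 cell, and at 30.1 against 77.9 CPM in isotype cells. Ifng, the interferon gamma gene, was at 463 against 196 CPM in blockade cells, where 146 of 585 UMIs lay in 1 cell, and at 278 against 103 CPM in isotype cells. Of the 21 cytotoxic genes entered, a list that holds these chemokines and cytokines as well, 9 were at least 2-fold higher in both libraries. Gzma was among them, and 0 were lower. Of all genes, 0.393% were higher and 1.56% lower. The median log2 ratio of the list was 0.59 in blockade and 1.04 in isotype cells, against 0.02 and 0.11 over all genes.

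Protease inhibitors, surface receptors and regulators filled most of the remaining list. Serpinb9, an inhibitor of granzyme B that protects killer cells from their own protease, was at 248 against 105 CPM in blockade and 231 against 43.7 CPM in isotype cells. Serpinb6b, of the same serpin clade, was at 402 against 171 CPM and 449 against 88.6 CPM. Both belong to families of close copies, so their counts are less certain. Klrc1, the inhibitory receptor NKG2A, was at 809 against 363 CPM and 462 against 104 CPM. Slamf7, a SLAM family receptor, was at 103 against 46.8 CPM and 97.1 against 21.4 CPM. Tnfrsf9, the co-stimulatory receptor 4-1BB of activated T cells, was at 253 against 88.0 CPM and 107 against 40.3 CPM. Stx11, a syntaxin needed for granule exocytosis, was at 54.6 against 22.1 CPM and 40.2 against 8.44 CPM.

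The chemokine receptor Ccr2, which guides effector cells into inflamed tissue, was at 266 against 123 CPM in blockade and 204 against 32.9 CPM in isotype cells. Of 6 chemokine receptor genes entered, 2 were at least 2-fold higher in both libraries, Ccr2 among them, against 0.393% of all genes. Cxcr6, a receptor of tissue-residing T cells, was at 399 against 292 CPM and 194 against 81.3 CPM. Pdcd1, the gene of PD-1, was at 116 against 57.5 CPM in blockade and 43.5 against 11.2 CPM in isotype cells, although the cells were sorted as PD-1-. Pdcd1 was detected in 23.4% of blockade and 10.0% of isotype Gzma-high cells. Zeb2, a transcriptional repressor of terminal effector cells, was at 45.9 against 21.9 CPM and 93.8 against 9.30 CPM. Further members of the 25 were Plek, Gsap, Slc2a3, Aplp2, Snx11, Arsb, H2-Q10 and Wdr95, with ratios of 2.06 to 2.68 in blockade and 2.24 to 4.55 in isotype cells. H2-Q10 belongs to the near-identical class I family.

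**Figure D2:**
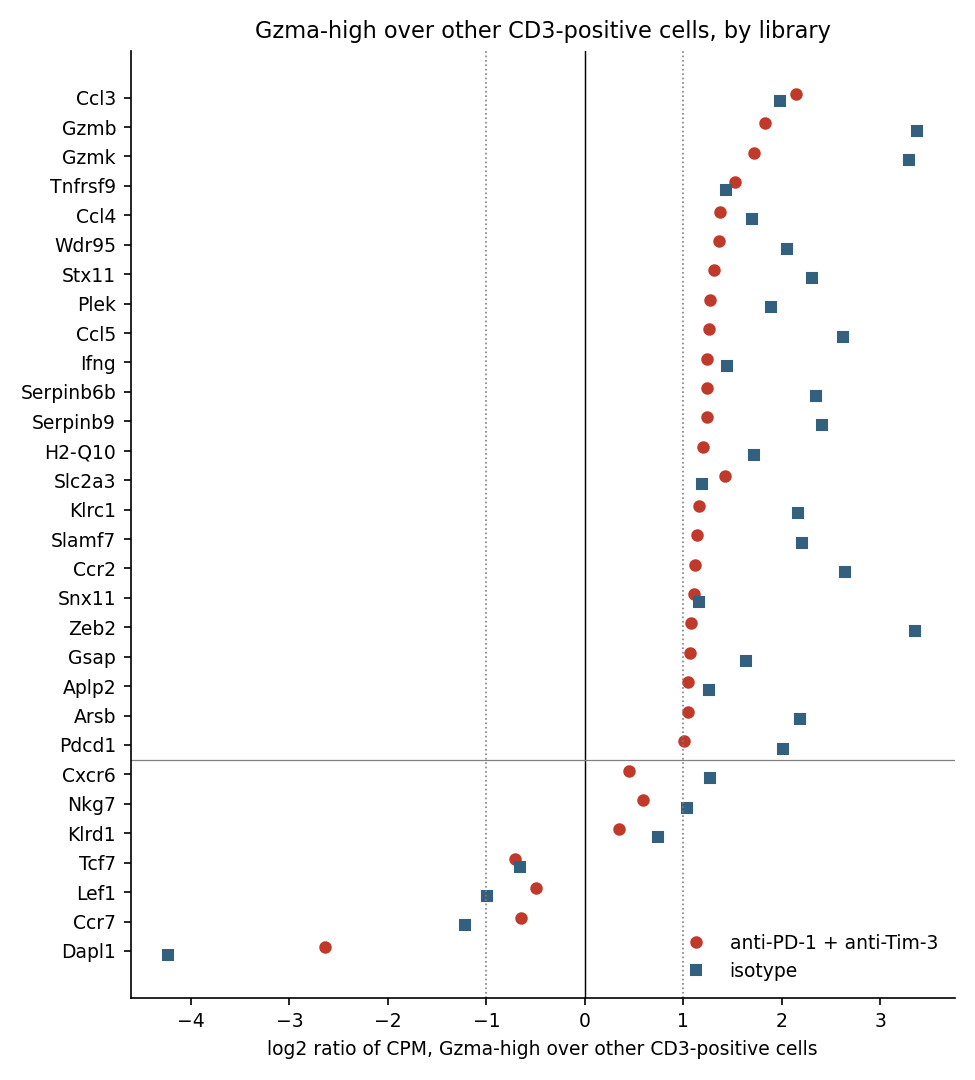
log2 ratio of CPM in Gzma-high over other CD3-positive cells for 23 of the 24 genes other than Gzma that were at least 2-fold higher in both libraries (above the grey line) and for 7 genes given for comparison (below it), with 1 point per library. The isotype point lies right of the blockade point for most of the 23, with Ccl3, Tnfrsf9 and Slc2a3 the other way round, and Dapl1 lies at -2.64 and -4.23.

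Klrg1, Cx3cr1 and S1pr5, markers of terminal effectors, had too few UMIs for the count of genes. Klrg1 was at 76.8 CPM (62.3 to 93.7) against 5.74 CPM in blockade and 80.4 CPM (51.5 to 120) against 4.69 CPM in isotype cells. Gzma-high cells held 61.0% of the Klrg1 UMIs of CD3-positive blockade cells and 30.4% of those of isotype cells. Cx3cr1, the fractalkine receptor, was at 24.6 against 2.59 CPM and 56.9 against 1.79 CPM. S1pr5, a sphingosine phosphate receptor of circulating effector cells, was at 19 against 1.57 CPM and 23.4 against 1.54 CPM, from 24 and 7 UMIs. Tbx21 (T-bet) was at 42.0 against 26.5 CPM and 36.8 against 12.5 CPM, and Eomes at 32.5 against 22.9 CPM and 70.3 against 35.1 CPM. Of 19 terminal effector genes entered, 2 were at least 2-fold higher in both libraries, against 0.393% of all genes. The median log2 ratios were 0.38 and 1.48, against 0.02 and 0.11 over all genes. Members of that list that lay lower were Anxa1, at 33.3 against 123 CPM in blockade and 23.4 against 41.5 CPM in isotype cells, and S100a6, at 1544 against 2629 CPM and 914 against 964 CPM.

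Genes of naive and homing cells were lower. Of 21 entered, 0 were at least 2-fold higher and 4 at least 2-fold lower in both libraries, against 0.393% and 1.56% of all genes. The median log2 ratios were -0.52 and -0.66, against 0.02 and 0.11 over all genes. Dapl1, a gene of naive CD8+ T cells, was at 11.1 against 71.5 CPM in blockade and 20.1 against 409 CPM in isotype cells. Ccr7, the lymph node homing receptor, was at 93.5 against 148 CPM and 131 against 307 CPM, and Tcf7, which encodes TCF-1, at 103 against 169 CPM and 154 against 246 CPM. Igfbp4 had 2 and 1 UMIs in Gzma-high cells, against 291 and 176 CPM in the others, although its isotype log2 ratio was 1.20 when 2 Gzma UMIs were enough. With cells thinned, 2.52% of other blockade and 17.5% of other isotype cells held Igfbp4, so the pooled blockade level came from few cells. Igfbp4 was also at 421 and 119 CPM in the Ccl5-positive cells without Ccr7 (below), so its level does not follow naive cells alone. That pool also held Krt8 at 204 and 249 CPM and Spp1 at 419 and 175 CPM. Which of its cells gave the Igfbp4 UMIs was not tested. Among the 99 lower genes, Klra1, Klra6 and Klra7 were set to 0 by the rule, and Krt8, Krt18, Krt19, Spp1, Clu and Serpinh1 are genes of epithelial or stromal cells. Tumour and stroma markers reached 10 UMIs in 0 of the Gzma-high cells, against 17 other blockade and 12 other isotype cells. The lower count was 19 without the cells that held at least 2 such UMIs, where the higher count was 17.

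The other lists had few members past 2-fold in both libraries. Of all genes, 0.393% were at least 2-fold higher and 1.56% at least 2-fold lower. The 22 S phase genes entered had 0 members past 2-fold in both libraries in either direction, and the 10 G2/M genes had 0 higher and 2 lower. At least 10 G2/M UMIs were found in 4.91% against 3.30% of blockade and 0 against 1.52% of isotype cells, where 0 of 90 has an upper bound of 4.02%. The lists of oxidative phosphorylation (24 genes), interferon-stimulated genes (20), MHC class I and antigen processing (16), residency (7) and core CD8 T cell genes (15) had 0 members past 2-fold in both libraries. Some medians still differed from those of all genes, which were 0.02 in blockade and 0.11 in isotype cells. The median of the interferon-stimulated genes was 0.06 and 1.32, and their sum 5305 against 5140 CPM in blockade and 3876 against 1878 CPM in isotype cells, while the G2/M median was -0.05 and -1.04. Of 18 immediate early genes 1 was lower, and of 16 glycolysis genes Slc2a3 was higher. Of 19 memory precursor genes 1 was higher and 1 lower, of 18 cytokine receptor genes 0 and 1, and of 18 transcription factors of T cell states 1 and 2. Of the marker lists of other cells, 5 of 7 tumour and stroma genes were lower, and 0 of 6 natural killer, 5 myeloid and 4 blood genes passed in both libraries. Ikzf2, the gene of the transcription factor Helios, was at 34.1 against 114 CPM and 16.7 against 57.5 CPM. By the rule, all cells with Klra UMIs are among these other cells. Against the Ccl5-positive cells without Klra UMIs (next paragraph), Ikzf2 was not lower, with log2 ratios of 0.41 in blockade and 0.17 in isotype cells.

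The contrast depended on the cells it was set against. The Gzma-high cells were also compared with the 982 blockade and 686 isotype cells that held at least 3 Ccl5 UMIs and 0 UMIs of Ccr7 and the 3 Klra genes, a group chosen after the values had been seen. Of 2977 genes entered, 8 (0.269%) were at least 2-fold higher and 38 (1.28%) at least 2-fold lower in both libraries. Of the 8, 7 were also among the 25, with Gzma, Gzmb, Gzmk, Serpinb6b, Serpinb9 and Tnfrsf9 among them, and Klre1, a lectin-like receptor gene, was not. The log2 ratio of Gzmb was 1.51 in blockade and 2.04 in isotype cells, that of Gzmk 1.01 and 1.33, and that of Serpinb9 1.15 and 1.48. The ratios of Ccl3 (1.67 and 0.59) and Ccl4 (1.01 and 0.15) were smaller in isotype cells, and that of Ccl5, by which the compared cells were chosen, was larger (0.86 and 1.21). Ifng was at 0.83 in blockade and -0.039 in isotype cells, below 0, and Cxcr6 at 0.015 and 0.26.

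**Figure D3:**
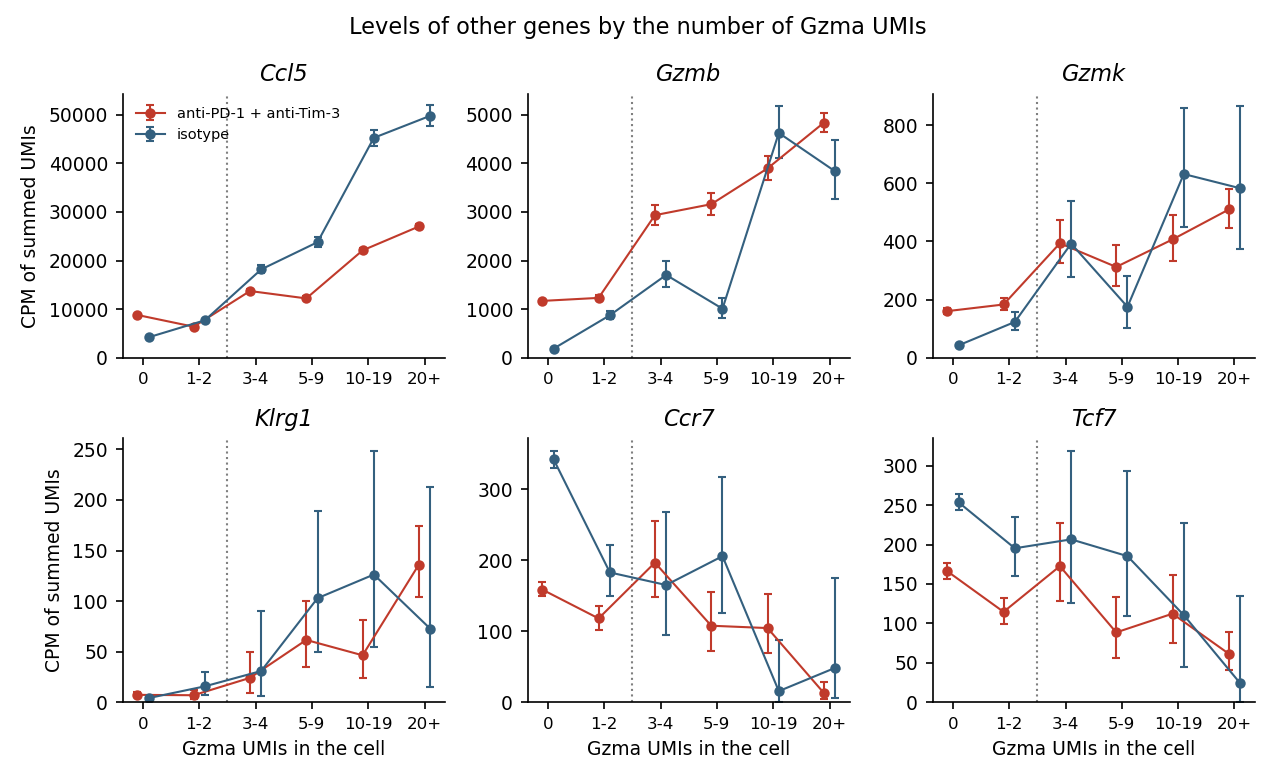
CPM of 6 genes (summed UMIs, with 95% Poisson intervals) in CD3-positive cells without Klra UMIs, by the number of Gzma UMIs in the cell, for each library. Ccl5, Gzmb and Klrg1 are higher right of the dotted threshold, with Klrg1 at 136 and 72.8 CPM at 20 or more UMIs in blockade and isotype cells. Ccr7 is not lower just past the threshold in blockade cells, and falls to 13.2 and 48.6 CPM at 20 or more UMIs.

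Within the range of Gzma levels, other genes moved in steps of their own. Just outside the threshold, at 1 to 2 Gzma UMIs, Gzmb was at 1232 CPM in blockade and 874 CPM in isotype cells. Just inside it, at 3 to 4 UMIs, Gzmb was at 2934 and 1704 CPM, and Gzmk at 393 and 392 CPM against 183 and 123 CPM outside. Ccl5 was at 6387 and 7711 CPM at 1 to 2 UMIs, 13733 and 18185 CPM at 3 to 4 UMIs and 27015 and 49791 CPM at 20 or more. Ccr7 was at 197 and 165 CPM at 3 to 4 UMIs and 13.2 and 48.6 CPM at 20 or more, and Tcf7 at 173 and 207 CPM against 61.5 and 24.3 CPM. S1pr5 had 0 UMIs at 3 to 4 Gzma UMIs in either library and was at 37.3 and 121 CPM at 20 or more, from 17 and 5 UMIs. These bands hold 69 and 27 cells at 3 to 4 UMIs, and 85 and 14 at 20 or more. Median depth differed along them, at 3737 and 4345 UMIs per blockade cell and 3431 and 2392 UMIs per isotype cell in the bands of 3 to 4 and of 20 or more. Its part in the levels was not tested.

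Gzma-high cells were not uniform. Klrg1 or Cx3cr1 was detected in 72 of 265 blockade cells (27.2%, interval 21.9 to 33.0%) and 27 of 90 isotype cells (30.0%, 20.8 to 40.6%), against 3.30% and 2.29% of other cells. The intervals of the 2 libraries overlapped. Cells with either receptor gene had more Ccl5, at 37722 against 13897 CPM in blockade and 49270 against 24040 CPM in isotype cells. They also had more Gzma (7643 against 3499 CPM and 4550 against 2802 CPM), Zeb2 (103 against 26.5 CPM and 209 against 57.4 CPM) and S1pr5 (65.8 against 3.18 CPM, from 21 and 3 UMIs, and 69.6 against 8.82 CPM, from 5 and 2 UMIs). Klf2, a transcription factor that keeps T cells in circulation, was at 1514 against 865 CPM and 3033 against 1782 CPM. Ccr7 went the other way, at 37.6 against 112 CPM and 27.8 against 163 CPM. Cells with either receptor gene were shallower, with a median of 3356.5 against 4087 UMIs in blockade and 2198 against 3200 in isotype cells, and the part of depth in these levels was not tested.

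A further 70 blockade and 33 isotype cells had no UMI of Klrg1, Cx3cr1 or Gzmk. Their Ccr7 was at 251 and 263 CPM, Tcf7 at 164 and 199 CPM and Ccl5 at 10318 and 11700 CPM. These levels of Ccr7 and Tcf7 lay above those of all Gzma-high cells, at 93.5 and 131 CPM for Ccr7 and 103 and 154 CPM for Tcf7. Ccr7 was detected in 16.2% of blockade and 17.8% of isotype Gzma-high cells, and Ccr7 together with Igfbp4 in 1 and 0 cells. Of the markers outside the rule that bear on the label effector-like, Gzmb was detected in 247 of 265 blockade and 77 of 90 isotype cells, and Ccl5 in 260 and 89. UMIs of the naive and homing list were present as well, with a median of 8 per Gzma-high cell against 11 per other blockade cell. In the isotype library the medians were 10 and 22. Klf2 gave the most UMIs of that list in Gzma-high cells, 1299 and 622, against 130 and 46 for Tcf7 and 118 and 39 for Ccr7. Klf2 was higher in the cells with Klrg1 or Cx3cr1 (above), so the list sum does not follow naive features alone. Tcf7 with Gzmb was found in 27.5% and 28.9% of Gzma-high cells, against 27.5% and 7.37% of the others.

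The rule also set aside 37 blockade and 11 isotype CD3-positive cells with at least 3 Gzma UMIs and a UMI of Klra1, Klra6 or Klra7, which encode Ly49 receptors from a family with near-identical copies. These cells had less Gzmk, at 86.1 and 34.4 CPM against 421 and 399 CPM in Gzma-high cells, and less Klrc1, at 219 and 68.8 CPM against 809 and 462 CPM. Their sums are small, and they were not used further.

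Between the conditions, several genes that mark Gzma-high cells differed less within these cells than within the other cells. Gzmk was at 421 CPM in blockade and 399 CPM in isotype Gzma-high cells, a log2 ratio of 0.08, against 1.64 in other CD3-positive cells. For Gzmb the log2 ratio was 0.69 in Gzma-high and 2.24 in other cells, for Ccr2 0.37 and 1.90, and for Klrc1 0.80 and 1.81. Ccl5 was lower in blockade than in isotype Gzma-high cells, with a log2 ratio of -0.60, and higher in other cells, at 0.76. Tnfrsf9, at 1.22 and 1.12, and Ccl3, at 0.65 and 0.49, differed by about as much in both. With 1 library per condition these differences between ratios were not tested. Of 2581 genes with at least 50 CPM in Gzma-high cells of 1 library, 100 (3.87%) were at least 2-fold higher and 28 (1.08%) at least 2-fold lower in blockade cells. For 74 (2.87%) and 12 (0.465%) of the genes entered, the Poisson intervals were apart as well.

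**Figure D4:**
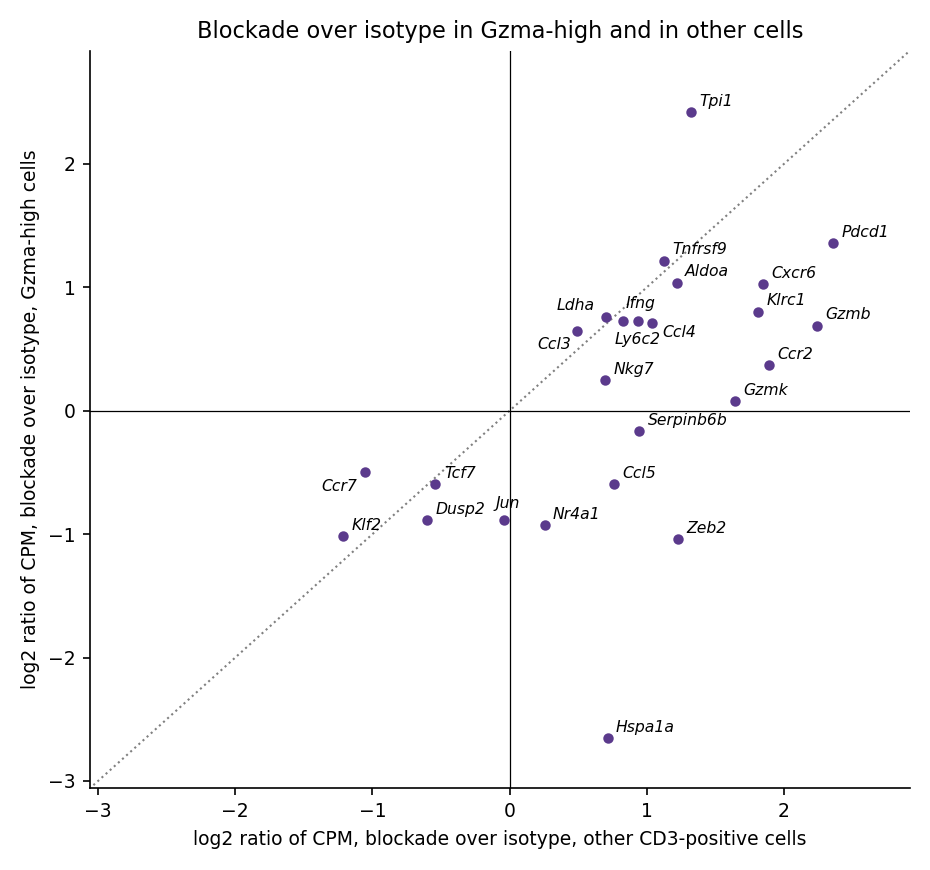
log2 ratio of CPM, blockade over isotype, in Gzma-high cells (vertical axis) and in other CD3-positive cells (horizontal axis), 1 point per gene; the dotted line marks equal ratios. Pdcd1, Gzmb, Gzmk and Ccr2 lie below the line, with Gzmk at 0.08 and 1.64, and Tpi1 lies above it at 2.42 and 1.32.

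Of 9 co-inhibitory genes entered, 4 were at least 2-fold higher and 0 lower after blockade, where 100 of 2581 genes (3.87%) were higher. Of the 9, 5 had a log2 ratio above 0, and the median was 0.09 against 0.06 over all genes. In other CD3-positive cells the median of these 9 was larger, at 0.92 against 0.19 over all genes. Pdcd1 was at 116 CPM (97.6 to 136) in blockade and 43.5 CPM (23.2 to 74.5) in isotype Gzma-high cells, and Lag3, an inhibitory receptor, at 116 and 43.5 CPM. Havcr2, the gene of Tim-3, had 51 UMIs in 32 blockade cells and 0 in isotype cells, at least 4.02-fold higher against the floor of 3 UMIs over the isotype sum. Tnfrsf9 was at 253 and 107 CPM, but its log2 ratio was -0.18 with cells thinned to equal depth. Nr4a1 and Nr4a2, nuclear receptor genes of the same list, lay the other way, with log2 ratios of -0.93 and -0.97. Outside the list, Cxcr6 was at 399 and 194 CPM, and Rgs16, a regulator of G protein signalling, had 85 UMIs in 22 blockade cells, 19 of them in 1 cell, and 1 UMI in isotype cells. In the isotype library Pdcd1 rests on 13 UMIs in 9 cells.

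Of 13 glycolysis genes entered, 4 were at least 2-fold higher and 13 had a log2 ratio above 0, with a median of 0.88, against 1454 of 2581 above 0 and a median of 0.06 over all genes. Tpi1, a triose phosphate isomerase, was at 402 CPM (368 to 439) in blockade and 73.7 CPM (46.2 to 112) in isotype cells, and Aldoa, an aldolase, at 1441 and 700 CPM. Bnip3, a mitochondrial protein gene induced by hypoxia, had 112 UMIs in 28 blockade cells and 0 in isotype cells, at least 8.83-fold higher. In other CD3-positive cells the median of the glycolysis list was 0.84, close to that of Gzma-high cells. All 16 interferon-stimulated genes entered had a ratio above 0, with a median of 0.48 in Gzma-high and 1.61 in other cells.

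Of 16 immediate early genes entered, 0 were past 2-fold in either direction, and 2 had a log2 ratio above 0, with a median of -0.46. Dusp2, a phosphatase gene, was at 626 CPM in blockade and 1159 CPM in isotype cells, Jun at 337 and 623 CPM, Fos at 480 and 760 CPM and Nr4a1, an early response gene of T cell receptor signalling, at 58.6 and 111 CPM. Klf2 was at 1029 CPM (974 to 1086) and 2084 CPM (1923 to 2254), a log2 ratio of -1.02, and it was also lower in other blockade cells, at -1.21. Zeb2 was at 45.9 and 93.8 CPM, a log2 ratio of -1.04 that turned to 0.79 with cells thinned. Klra9, of the same near-identical family as the genes in the rule, was at 12.7 and 77.0 CPM, and Hspa1a, a heat shock gene, at 19 and 121 CPM from 24 and 36 UMIs. The Hspa1a UMIs of isotype cells lay in 6 cells. The median share of mitochondrial UMIs was 1.88% in blockade and 2.38% in isotype Gzma-high cells, and its part in these values was not tested.

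A few blockade cells decided the largest ratios. Hbb-bs had 2278 UMIs in blockade Gzma-high cells, of which 2256 lay in 1 cell, and Hba-a1 had 951 of 957 in 1 cell. Lyz2 had 110 of 114 UMIs, and Cxcl2 160 of 162 UMIs, in 1 cell, and Cd74 479 of 901. Haemoglobin genes have near-identical copies, and Lyz2 has a close copy, so their split is uncertain. Summed myeloid and dendritic markers were at 1727 CPM in blockade and 188 CPM in isotype Gzma-high cells, with 43.2% of the blockade sum in 1 cell. At least 10 UMIs of B cell, myeloid or dendritic markers were found in 4 blockade and 0 isotype cells. Without likely doublets, taken broadly as cells with at least 2 UMIs of such markers or a depth above percentile 98, 58 genes were higher in place of 100. At least 2 such UMIs were found in 81 of 265 blockade (30.6%) and 12 of 90 isotype (13.3%) Gzma-high cells. The criterion thus fell unevenly on the libraries.

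In the bulk libraries the genes of Gzma-high cells could be tested in samples that had not chosen them. PD-1- CD8+ TILs from wild-type mice with the same tumour had been sorted by surface proteins, Slamf7 and CX3CR1 among them, into effector-like cells (Slamf7hiCX3CR1+, 3 libraries), memory-like cells, which differ in lacking CX3CR1 (Slamf7hiCX3CR1-, 5 libraries), and naive-like cells (Slamf7-CX3CR1-, 6 libraries). Library names give the effector-like replicates several numbers, 1 of them shared, so they may be pools with an animal in common, and the memory-like names bear numbers of the same series. A p-value here reflects the spread among these libraries alone, which may be partly technical, and in bulk RNA fewer cells of a kind and less RNA per cell cannot be told apart. Slamf7 and Cx3cr1 belonged to the gate and are no finding there.

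Gzma separated the effector-like libraries fully. It was at 1577, 1424 and 1552 CPM in effector-like cells, against 190, 154, 262, 170 and 257 CPM in memory-like and 13.6 to 61.0 CPM (median 30.5) in naive-like cells. The log2 fold change was 2.80 ± 0.32 (SE) against memory-like cells (edgeR quasi-likelihood test, Benjamini-Hochberg adjusted p = 0.000186). Ccl5 was at 5483, 4936 and 5496 CPM against 1718, 1099, 1568, 1420 and 1480 CPM in memory-like and 786 to 1234 CPM in naive-like cells (1.79 ± 0.17 against memory-like cells, edgeR adjusted p = 5.99e-05). No effector-like library overlapped with another group for either gene. Gzmk did not separate the first pair, at 103, 86.8 and 89.3 CPM in effector-like against 97.6, 40.0, 60.3, 48.4 and 62.2 CPM in memory-like cells (0.51 ± 0.46, edgeR adjusted p = 0.775), while naive-like cells were at 1.45 to 12.9 CPM (3.66 ± 0.45 against them, edgeR adjusted p = 7.68e-05). Gzmb was at 2329, 3589 and 4210 CPM in effector-like against 1071, 726, 1234, 1608 and 2656 CPM in memory-like cells, which overlapped (1.14 ± 0.46, edgeR adjusted p = 0.323). Klrg1, which was not part of the gate, was at 140, 126 and 197 CPM in effector-like against 8.57, 9.59, 9.34, 11.9 and 20.8 CPM in memory-like cells (3.60 ± 0.63, edgeR adjusted p = 0.00583), and at 0 to 1.94 CPM in naive-like cells. It missed the threshold without effector-like replicate 3 (edgeR adjusted p = 0.0523).

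Prf1, scarce in the single cells, was measurable in bulk. It was at 381, 189 and 286 CPM in effector-like against 82.5, 111, 94.6, 80.7 and 175 CPM in memory-like cells, which did not overlap (log2 fold change 1.3 ± 0.31, edgeR adjusted p = 0.0463), and at 34.3 to 85.5 CPM in naive-like cells (2.19 ± 0.30 against them, edgeR adjusted p = 0.000206). Against memory-like cells it missed the threshold without memory-like replicate 1, 2, 3 or 4, without effector-like replicate 1 or 3, with the groups fitted alone and with either replicate block (edgeR adjusted p = 0.0558 to 0.230).

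Of the 24 genes other than Gzma that were at least 2-fold higher in Gzma-high cells, 23 were tested in bulk, and Slamf7, a gate gene, was left out between the subsets. Against memory-like cells 1 of 22, Ccl5, passed as higher (4.55%), where 60 of 12388 genes (0.484%) were called higher and 177 (1.43%) lower; 21 of the 22 lay above 0, with a median log2 fold change of 0.50 against 0.01 over all genes. Zeb2 was at 91.4, 138 and 151 CPM in effector-like against 18.3 to 40.2 CPM in memory-like cells, but missed the threshold (2.16 ± 0.67, edgeR adjusted p = 0.152), and passed with DESeq2 (0.0406) or with the 2 groups fitted alone (0.00625). Without memory-like replicate 5, 2 of the 22 passed. Over all genes, leaving out effector-like replicate 2 gave 105 calls, leaving out its replicate 1 gave 153, and leaving out memory-like replicate 3 gave 156, in place of 237.

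Against naive-like cells 20 of 22 (90.9%) were higher and 0 lower, where 325 genes (2.62%) were called higher and 470 (3.79%) lower. Aplp2 (0.72 ± 0.22, edgeR adjusted p = 0.0676) and Slc2a3 (1.32 ± 0.49, 0.143) missed the threshold. The median was 2.02, against 0.04 over all genes. Klrc1 rose by 2.24 ± 0.27, Ccr2 by 1.81 ± 0.29 and Serpinb9 by 2.14 ± 0.27 (log2, edgeR adjusted p = 5.54e-05, 0.00102 and 8.23e-05). The naive-like library names bear a different date from the other subsets, and in this comparison the date cannot be told apart from the group. Over all genes, leaving out effector-like replicate 2 gave 517 calls and leaving out its replicate 1 gave 484, in place of 795. Of the 96 genes lower in Gzma-high cells outside the rule, 9 of 92 tested were called lower and 66 lay above 0 in effector-like against naive-like cells.

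**Figure D5:**
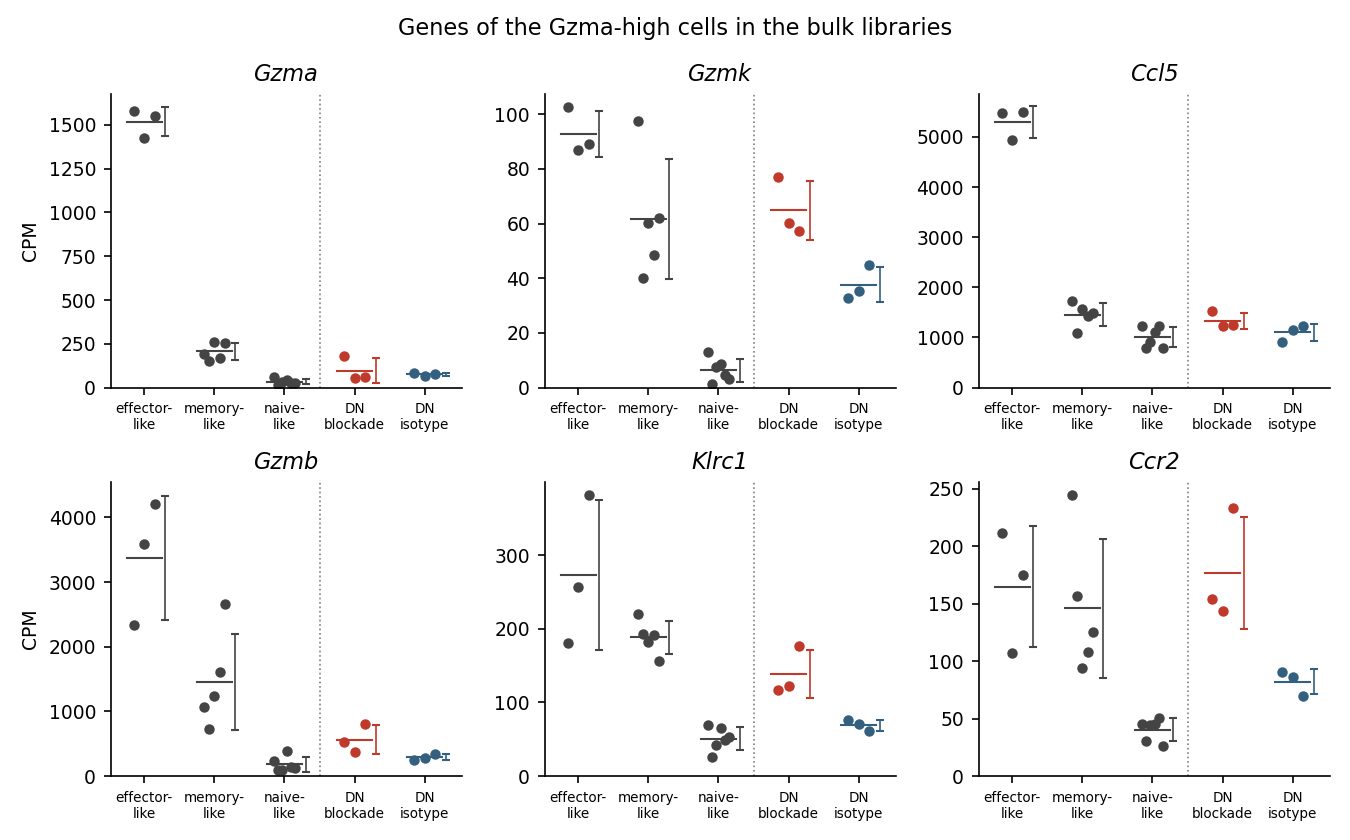
CPM of 6 genes in each bulk library, with the mean (line) and SD (bar) of each group; effector-like, memory-like and naive-like libraries and, right of the dotted line, Tim-3-PD-1- (DN) libraries after blockade and isotype are from separate experiments. Gzma is at 1424 to 1577 CPM in effector-like libraries alone, and the DN blockade libraries lie above the DN isotype libraries for Gzmk, Klrc1 and Ccr2.

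The last comparison used bulk Tim-3-PD-1- cells, the sort and treatment of the single cells, with 3 libraries each after blockade and isotype, in a fit that also held the Tim-3+PD-1+ libraries. Gzma was at 178, 53.1 and 58.2 CPM after blockade against 85.2, 67.2 and 74.8 CPM after isotype, and did not pass (0.33 ± 0.45, edgeR adjusted p = 0.764). Only blockade replicate 1 lay above the isotype libraries. Klrg1 was likewise at 45.6, 11.1 and 7.63 CPM after blockade, highest in the same library, against 14.9, 11.9 and 10.8 CPM. Ccl5 was at 1519, 1236 and 1250 CPM against 918, 1148 and 1238 CPM (0.26 ± 0.14, edgeR adjusted p = 0.410). The 3.51-fold larger share of Gzma-high cells in the single-cell blockade library thus had no matching Gzma difference beyond the spread of the bulk libraries.

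Other genes of Gzma-high cells did rise after blockade. Of the 23 tested, 6 (26.1%) were higher and 0 lower, where 66 of 12710 genes (0.519%) were called higher and 76 (0.598%) lower; 20 of 23 lay above 0, with a median of 0.61 against -0.01 over all genes. Gzmk was at 77.2, 60.1 and 57.4 CPM after blockade against 32.8, 35.4 and 45.0 CPM after isotype (0.77 ± 0.15, edgeR adjusted p = 0.0334), and the groups did not overlap. Klrc1 was at 117, 122 and 177 CPM against 75.6, 70.7 and 61.1 CPM (0.98 ± 0.15, edgeR adjusted p = 0.0177). Ccr2 was at 154, 144 and 233 CPM against 90.7, 86.4 and 69.6 CPM (1.08 ± 0.19, edgeR adjusted p = 0.0272). Pdcd1 (1.69 ± 0.26), Ifng (1.20 ± 0.22) and Stx11 (0.89 ± 0.15) were the other 3, with edgeR adjusted p = 0.0166, 0.0286 and 0.0231. Gzmb was at 523, 367 and 804 CPM against 254, 282 and 343 CPM and missed the threshold (0.93 ± 0.23, edgeR adjusted p = 0.0700), while it passed with DESeq2 (adjusted p = 0.00162), without a filter on low counts (edgeR adjusted p = 0.0235) and without blockade replicate 2 (0.0247). Prf1, which is not one of the 23, was at 99.1, 89.3 and 134 CPM after blockade against 35.6, 50.5 and 34.9 CPM after isotype (1.38 ± 0.23, edgeR adjusted p = 0.0231). It missed the threshold without isotype replicate 1 or blockade replicate 3 and with the groups fitted alone (edgeR adjusted p = 0.0715 to 0.141).

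With the replicate number as a block, 3 of the 23 and 59 of all genes passed, in place of 142, and Gzmk, Ccr2 and Ifng did not (edgeR adjusted p = 0.0604, 0.0520 and 0.0564). Without isotype replicate 1, isotype replicate 2 or blockade replicate 3, 2 of the 23 passed, and the count over all genes was 22, 28 and 42. It was 82 without blockade replicate 1 and 229 without isotype replicate 3. With the 6 libraries fitted alone, 0 of the 23 and 2 of all genes passed in edgeR, where DESeq2 called 9 of the 23 in the full set of libraries; at an unadjusted p under 0.05 the main test counted 1981 genes. Gzmk also missed the threshold without blockade replicate 1 (0.0834), and Ifng without blockade replicate 2 (0.0526).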

How the data were processed

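Single-cell values are UMI counts per gene and cell, deposited by the authors without scaling and made with Cell Ranger 1.3 and mm10, per the submitters' processing notes. Bulk values are expected counts per gene, deposited unscaled; TopHat, RSEM, DESeq and mm9 are named for them in the submitters' processing notes, with no role or order. Cells were assigned to a library by the barcode suffix, 1 for S1 (isotype) and 2 for S2 (blockade), per the labels' descriptions. The members and lists were chosen with earlier results of these data known.

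For each set of cells in a library, UMIs were added up per gene and scaled to CPM. Poisson (CPM) and Clopper-Pearson (shares) intervals are exact, at 95%. log2 ratios had 0.5 UMIs added. No cell was removed for depth or as a doublet, and no doublet caller was run. Genes were named by rule: a set list of T cell genes, the 12 highest and 12 lowest by the smaller ratio of the 2 libraries, up to 4 from each of 24 lists, and the 10 highest and 10 lowest between conditions. Klf2, Tpi1, Rgs16, Jun, Nr4a1, Nr4a2, S1pr5, Xcl1, Gzmc, S100a6, Anxa1, the remaining members of the 25 and Klre1 were named after their values were seen.

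Expected counts were rounded, with 4 repeated rows of the subset table left out, and fitted with edgeR 4.0.16 (TMM, quasi-likelihood, 12388 genes and 14 libraries of the subset, 12710 genes and 12 libraries of the treatment experiment). Bulk CPM are scaled to the library's total count, 5027080 to 13579300. The limit for a call was 0.05 after Benjamini-Hochberg adjustment, and the test was checked on simulated data. In the treatment experiment the 3 same-numbered pairs of DN libraries deviated together (correlations of 0.122, 0.383 and 0.184), so the block is given beside that result. DESeq2 1.42.0, other thresholds and left-out libraries were the alternatives. A few genes, a surface protein of the bulk sort and a narrower set of compared cells are not reported here.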

Additional observations from a re-analysis of the deposited data

Results flagged for a closer look

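Klrg1 had 1 library far from the rest in the memory-like and in the naive-like group. It was at 20.8 CPM in memory-like replicate 5, with 11.9 CPM in the next of the 5 libraries, and at 1.94 CPM in naive-like replicate 5, with 0.713 CPM in the next of the 6. These were 2 of 24 groups checked, and chance gives about 1 in 20.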

How the results depend on the processing

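The share of Gzma-high cells was 13.2% in blockade and 3.97% in isotype cells with at least 2 Gzma UMIs, 8% and 2.15% with at least 5, and 8.71% and 1.41% with cells thinned, a ratio of 6.19. It was 12.3% in blockade cells without the Klra criterion. The 25 higher genes became 15 with cells thinned, 13 without likely doublets, 15 with the minimum for a gene doubled, 8 against Ccl5-positive cells and 47 with the blockade sum thinned. The 99 lower genes became 19 with at least 2 Gzma UMIs, 37 without the Klra criterion, 30 thinned, 25 without likely doublets, 19 without cells with tumour markers, 60 by mean CPM per cell, 198 and 49 with the minimum halved and doubled, and 38 against Ccl5-positive cells.

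Of genes higher after blockade there were 175 with cells thinned, 58 without likely doublets, and 254 and 43 with the minimum halved and doubled, in place of 100. Of genes lower there were 66 and 58 with at least 2 and 5 Gzma UMIs, 178 thinned, 49 by mean CPM per cell, and 109 and 2 with the minimum halved and doubled, in place of 28. With cells thinned, the blockade over isotype log2 ratios of Tnfrsf9 (-0.18), Zeb2 (0.79) and Cx3cr1 (0.40) changed sign, as did those of Igfbp4 in isotype cells with at least 2 Gzma UMIs (1.20) and, between conditions, without the Klra criterion (5.70). Against Ccl5-positive cells the isotype ratio of Ifng (-0.039) changed sign. The cause was not tested.

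In bulk, DESeq2 called 539 genes between effector-like and memory-like, 1284 between effector-like and naive-like and 521 between DN blockade and DN isotype cells. With DN groups fitted alone 2 were called, and 224 without a filter on low counts. Leaving out 1 library at a time gave 105 to 215, 484 to 1068 and 22 to 229 calls. Of the 22 genes (23 in DN cells), DESeq2 called 4 and the groups alone 2 against memory-like cells, and leave-one-out gave 1 to 2, 16 to 22 and 2 to 6. In DN cells the groups alone gave 0. With a replicate block the calls were 123, 580 and 59, and of these genes 1, 15 and 3. Same-numbered subset libraries did not deviate together (correlations of -0.25 to 0.06). By the numbers in the library names, effector-like replicates 1, 2 and 3 correlated by 0.101, 0.0644 and 0.236 with the memory-like libraries that share a number. A replicate block of names 1 to 3 against 4 to 6, added after seeing the data, gave 208 and 749 calls for the subset comparisons, and 1 and 20 of the 22 genes. Among single values, 1069 alternatives kept direction and side, 32 lost and 5 gained the call, 178 moved and 6 changed sign.

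Single-cell differences between conditions rest on 1 library each, and the isotype Gzma-high cells on 298530 UMIs, so genes under about 10.0 CPM, the level of 3 UMIs, cannot be compared there.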
